A study of Homo sapiens with 6 samples.

Results

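Among the regions of open chromatin that 22Rv1 cells kept at 0 h, 1 h and 24 h of the FOXA1_dTAG time course, 6100 were strong at 0 h and weaker at 24 h in both libraries of each time. They are called weakened regions here. Peaks of all 6 libraries on the 22 autosomes and X were merged wherever they shared at least 1 bp, which gave 167726 regions, and 72695 of these had a peak in every library. Each peak's fold, the deposited ratio of the pileup at its summit to the local background, was ranked within its own library as a percentile from 0 to 100, and a region took its highest peak. A region was eligible when it had a peak in all 6 libraries and a percentile of at least 50 in both 0 h libraries, and it was weakened when both 24 h percentiles lay at least 10 points below the lower 0 h percentile. Of 47412 eligible regions, 6100 met that rule, a share of 12.9%, and 41312 did not.

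The assay was ATAC-seq, in which a transposase cuts and tags accessible DNA, in 22Rv1, a long-established line of human prostate cancer cells. There were 3 groups of 2 libraries, FOXA1_dTAG at 0 h, at 1 h and at 24 h, and cells at 0 h carry the same tag label as the treated ones. The labels name neither the degrading molecule nor its dose, and they do not say whether replicates came from separate cultures or whether the tagged cells were 1 clone. The loss of FOXA1 protein was not measured in the files used here.

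FOXA1 is a forkhead transcription factor of luminal prostate cells. It is known as a pioneer factor, one that can bind its sites in closed chromatin and help other factors, the androgen receptor among them, to reach enhancers. A dTAG is a domain fused to a protein so that an added compound can have it degraded. An ATAC-seq peak that becomes weaker without disappearing can reflect an opening of fewer cells or alleles, or fewer cuts in each, and bulk peak lists do not separate these.

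The lists held 101755 to 125396 peaks. The background pileup of the lists gave a relative depth of 10.5 and 8.29 tags per kb at 0 h, then 8.14 and 8.62 at 1 h, then 7.35 and 7.06 at 24 h, so the 24 h libraries were the shallowest. The part of depth and list length in the results was not tested directly, and the counts that move with list length are given below. With 2 libraries per time the smallest p of an exact two-sided permutation test is 1 in 3, and the 0 h and 24 h values chose the regions, so their difference is a description and no p is given.

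By percentile of fold, the weakened regions were close to the other eligible regions in the 0 h libraries. Their median percentiles were 77.8 and 78.5 in the 0 h libraries, 61.6 and 64.6 in the 1 h libraries, and 43.5 and 46.2 in the 24 h libraries. The other eligible regions had 78.6 and 80.3 at first, 80.2 and 81.2 after 1 h, and 78.1 and 80.8 after 24 h. The 1 h medians of the weakened regions lay between their 0 h and 24 h medians, a position that choosing high 0 h and low 24 h values favours by itself. The other eligible regions stayed within a few points of one level. Within a time, the 2 libraries differed for a weakened region by a median of 5.17 points at 0 h, 8.71 at 1 h and 9.29 at 24 h, and the corresponding values for other eligible regions were 5.29, 4.2002 and 5.39.

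**Figure D1:**
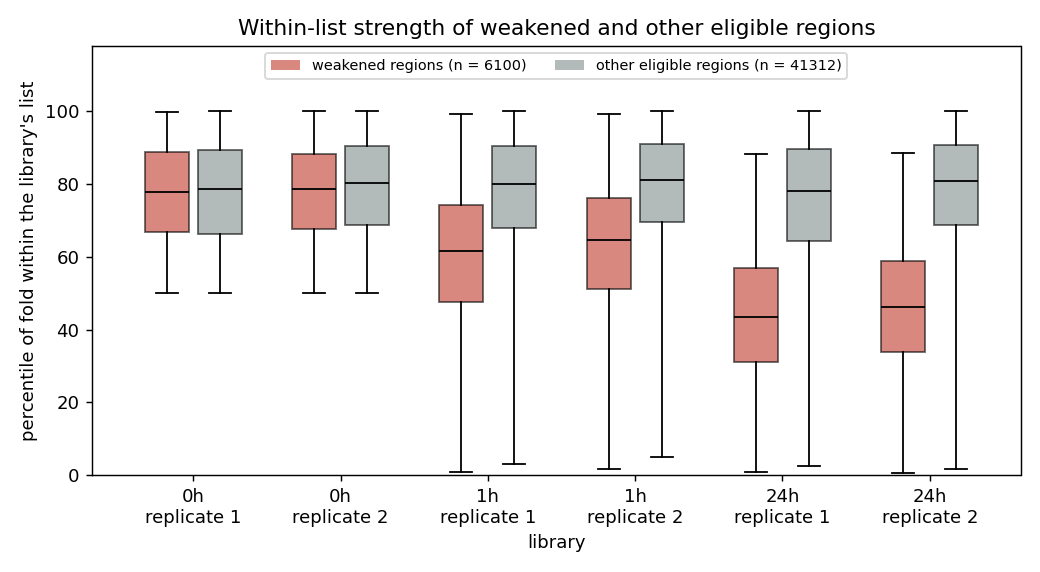
Percentile of fold within each library's list (y axis, 0 to 100) for the 6100 weakened regions and the 41312 other eligible regions in each of the 6 libraries (x axis). Boxes span the quartiles, lines mark medians and whiskers reach the lowest and highest region. The weakened regions have medians of 43.5 and 46.2 at 24 h and 61.6 and 64.6 at 1 h, while the other eligible regions stay near 80 throughout.

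In deposited fold, the weakened regions had medians of 9.54 and 10.4 at 0 h, then 7.10 and 7.57 at 1 h, then 6.22 and 6.04 at 24 h. The medians of the other eligible regions were 9.66 and 10.8 at 0 h, then 9.68 and 10.03 at 1 h, then 10.1 and 10.2 at 24 h. The ratio of the mean 24 h fold to the mean 0 h fold had a median of 0.630 in weakened regions, with 10% of them under 0.452, and of 0.978 in the other eligible regions. In 1045 weakened regions (17.1%) the mean 24 h fold was under 0.5 times the mean 0 h fold. This was so in 0 of the other eligible regions, a contrast that the choice of regions favours. Both 24 h folds lay below both 0 h folds in all 6100 weakened regions, against 30.4% of all eligible regions, an order that the choice of regions largely fixes.

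The fold depends on both the summit and the local background, and both can be recovered from the deposited values. Fold and -log10 p together gave back a whole-number pileup at the summit for 100% of peaks in each library, within 0.001 of the deposited -log10 p. The median pileup of weakened regions was 32 and 24 tags at 0 h, then 20 and 21 at 1 h, then 13 and 12 at 24 h. The other eligible regions had 45 and 34 tags at 0 h, then 41 and 42 at 1 h, then 35 and 33 at 24 h, so the weakened regions had the lower summits already at 0 h. In units of each library's most frequent background pileup, these were 19.8 and 26.1 at 0 h, then 14.3 and 15.2 at 1 h, then 12.04 and 12.5 at 24 h. The local background of the same regions, in the same units, was 1.05 and 1.06 at 24 h against 1.40 in both 0 h libraries, and that of the other eligible regions was 2.12 and 2.13 at 24 h against 2.07 and 2.12 at 0 h. In the weakened regions the summit was therefore lower at 24 h and the local background was not higher. At 24 h, 46.7% and 45.6% of weakened regions had the library's most frequent background, against 23.7% and 25.6% at 0 h. Whether a peak's own reads enter its local background was not tested. Both scaled 24 h pileups were below both 0 h ones in 5433 weakened regions (89.1%) and in 9.02% of the other eligible regions. The pileup is part of the fold that chose the regions, so the choice largely fixes this order and the lower summit.

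A percentile is coarse for weak peaks. At the most frequent background, 1 tag more or less moved a peak of 8 to 14 tags by a median of 6.92 and 6.51 points in the 24 h libraries, and by 6.02 and 6.19 points in the 0 h libraries. The margin of 10 points is thus worth less than 2 tags there. Several regions named below share the same 24 h percentile. The 2 regions just inside the margin, 3:151157274-151157954 and 12:72740016-72740805, each had a gap of 10.0 points between the lower 0 h and the higher 24 h percentile. Just outside lay 5:1673214-1673701 and 1:219619519-219620101, at 9.999 and 9.995 points.

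Most weakened regions remained clear peaks at 1 h and fewer did at 24 h. A -log10 q of at least 10 in both libraries of a time was met by 5698 of the 6100 (93.4%) at 0 h, by 3515 (57.6%) at 1 h and by 1374 (22.5%) at 24 h. At 24 h, 3669 (60.1%) were under that level in both libraries, a share that was not counted for the other eligible regions. Of the other eligible regions, 86.3% still met it in both 24 h libraries. In single libraries, 98.3% and 95.4% of them met it at 0 h, against 98.1% and 94.4% of weakened regions. At 1 h these shares were 93.2% and 95.1% against 66.3% and 72.1%, and at 24 h 90.9% and 91.7% against 33.0% and 29.3%. The 24 h libraries were also the shallowest, and the part of depth in these shares was not tested. The -log10 q goes with the fold, so choosing high 0 h and low 24 h folds favours this fall by itself.

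The gap between the lower 0 h and the higher 24 h percentile had a median of 19.8 points, and 10% of regions exceeded 42.3. Gaps of 10 to under 20 points made up 50.5% of the regions (3078), and those of 20 to under 30 points 23.7% (1448). A gap of 30 to under 50 points was seen in 1274 regions and one of 50 or more in 300. Those 300 had a median of 88.7 at 0 h, where so large a gap requires a high percentile, and 54.1 at 1 h and 20.03 at 24 h. The shallowest class had 76.7, 66.9 and 52.6 in the same order. The classes were in one order at 1 h and 24 h, and at 24 h the class limits themselves set that order.

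**Figure D2:**
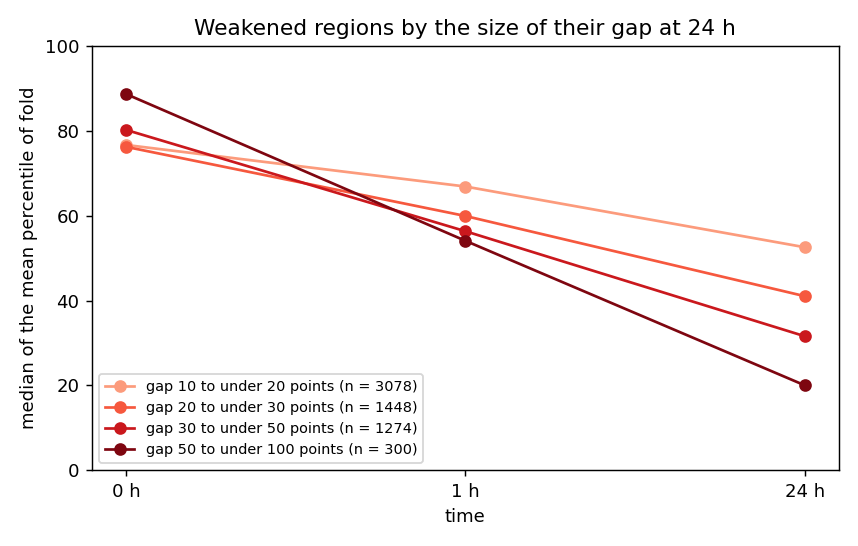
Median percentile of fold (y axis, mean of the 2 libraries of a time) at 0 h, 1 h and 24 h (x axis) for weakened regions in 4 classes of gap at 24 h. Lines fan out from medians of 76.2 to 88.7 at 0 h to 52.6 for the smallest gaps and 20.03 for the largest at 24 h.

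The largest gap belonged to X:90585828-90586885, a region of 1058 bp (chromosome and hg19 positions, as for all regions here). Its folds were 14.8 and 16.4 at 0 h, then 5.42 and 5.46 at 1 h, then 3.85 and 3.58 at 24 h, and its percentiles went with them, 97.2 and 97.3, then 42.0 and 42.1, then 7.89 and 6.44. It stood among the strongest peaks of its 0 h lists and among the weakest of its 24 h lists, with the replicates close together at each time. The second, 4:89332592-89333271, had folds of 16.7 in both 0 h libraries, 6.67 and 7.15 at 1 h, and 4.33 and 3.58 at 24 h. It lay 10.5 kb from a region lost at 24 h, meaning one that both 0 h lists hold and neither 24 h list does. The next region, 19:51710359-51711387, had 11.7 and 13.4, then 4.33 and 5.28, then 3.90 and 3.58. In all 3 the 1 h folds lay closer to the 24 h than to the 0 h values.

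The other 7 of the 10 largest gaps were 21:28526830-28528034, X:43552932-43553717, 4:99897867-99898291, 6:101686454-101686886, 18:69349706-69350683, 6:56176466-56177498 and 14:90323265-90323946. Their mean 24 h folds ranged from 2.94 to 4.22, against mean 0 h folds of 9.96 to 19.01. The strongest of these at 0 h, 18:69349706-69350683, had folds of 19.3 and 18.7 at 0 h, then 9.17 and 7.57 at 1 h, then 3.85 and 4.60 at 24 h. Its 24 h peaks were 206 and 326 bp wide, against 930 and 499 bp at 0 h. Here the 1 h peak was still in the upper part of its lists, at the 76.9th and 64.6th percentile.

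Weakened regions also included some of the strongest peaks of the 0 h lists. The weakened region with the highest mean 0 h percentile, 13:76410534-76411190, had folds of 20.7 and 25.96 at 0 h, then 14.6 in both 1 h libraries, then 10.6 and 9.71 at 24 h. Its 24 h percentiles were still 80.9 and 77.7. 16:4071088-4071687 had folds of 21.0 and 23.6 at 0 h, then 13.6 and 13.2 at 1 h, then 11.6 and 9.77 at 24 h. 6:125580329-125580815 had mean folds of 21.9 ± 1.23 at 0 h, 12.3 ± 1.31 at 1 h and 10.9 ± 0.280 at 24 h (SD, n = 2). In 7:78922851-78923431 the 24 h peak was much lower, with mean folds of 20.9 ± 0.5002 at 0 h, 9.57 ± 1.15 at 1 h and 5.20 ± 0.132 at 24 h (SD, n = 2). The remaining region of these 5, 1:58648793-58649405, had 20.5 ± 0.981, 11.1 ± 0.226 and 7.94 ± 0.3332 in the same order. In all 5 the mean 1 h fold lay closer to the 24 h than to the 0 h mean, but in mean percentile all 5 lay closer to 0 h at 1 h. The 1 h percentiles of 13:76410534-76411190, for example, were 97.5 and 96.9. These 5 were picked for extreme 0 h values. Over all weakened regions, a median of 46.0% of the 24 h difference in percentile was present at 1 h. Choosing high 0 h and low 24 h values by itself favours such a middle value.

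The share of eligible regions that met the rule was similar at all levels of 0 h strength, although the same margin in points need not mean the same change in fold. By the lower 0 h percentile, 11.8% of eligible regions between 50 and 60 were weakened, 14.4% between 60 and 70, 13.7% between 70 and 80, 13.1% between 80 and 90 and 11.005% from 90 up. The last band held 921 weakened regions, whose median 24 h percentile was 64.2, against 95.2 for the other eligible regions of that band. In the lowest band the medians were 29.0 for weakened and 59.6 for other eligible regions. The rule itself bounds the 24 h percentiles of the weakened regions in each band.

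The 0 h and 24 h strengths cannot be tested on regions they chose, so the choice was repeated with only the 0 h and 24 h libraries of one replicate number and read in the libraries of the other number. Choosing on replicate 1, 15898 of 51527 regions (30.9%) with a peak in all 6 libraries and a 0 h percentile of at least 50 were weakened by at least 10 points. Replicate 2 had no part in the choice beyond holding a peak. There, 73.9% of the chosen regions were lower at 24 h than at 0 h, against 45.9% of the regions not chosen. A difference of at least 10 points was seen in 51.4% of the chosen regions and in 13.6% of the others, and in 25.3% of all regions read. The median held-out difference, 24 h minus 0 h, was -10.6 points for chosen regions and 0.636 points for the others. Choosing on replicate 2 and reading in replicate 1 gave -12.8 and -0.0871 points. Then 15518 of 53657 regions (28.9%) were chosen, 55.8% of them were at least 10 points lower in the held-out libraries, and so were 16.9% of the others and 28.1% of all. The weakening seen in one pair of libraries was thus found again in the other pair for about 1 in 2 regions at the same margin, with a smaller median than in the pair that made the choice.

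**Figure D3:**
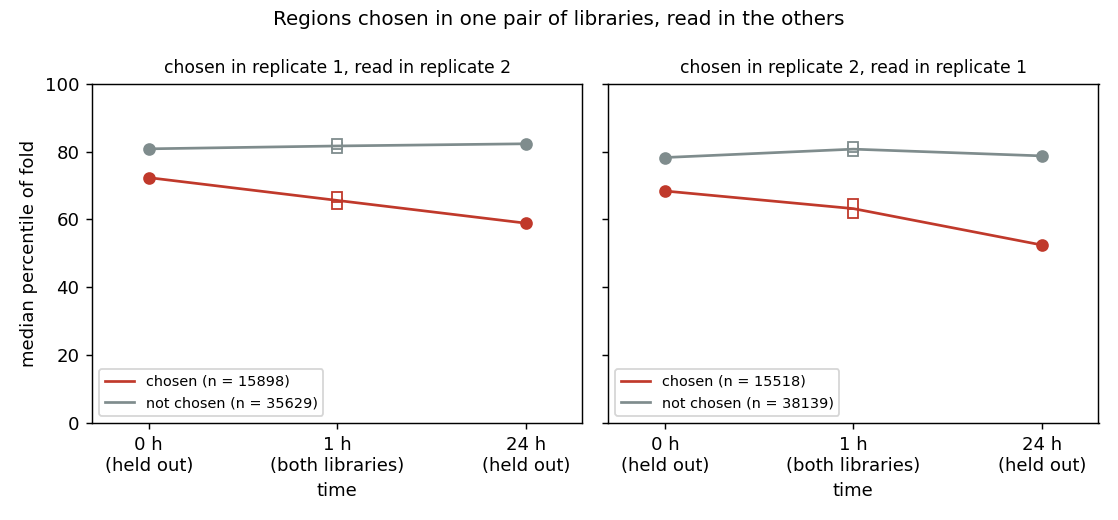
Median percentile of fold (y axis) of regions chosen as weakened in the 0 h and 24 h libraries of one replicate number and of regions not chosen, read in the 0 h and 24 h libraries of the other number (filled circles) and in both 1 h libraries (open squares). Chosen regions reach 58.9 and 52.5 at 24 h, from held-out 0 h medians of 72.3 and 68.4, and those not chosen stay between 78.2 and 82.3.

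The same reading gives a view of 1 h that is free of the 0 h values used in the choice. Against the held-out 0 h library, the regions chosen on replicate 1 had median differences of -5.82 and -4.43 points in the 1 h libraries, and the others differed by 0.152 and 0.714. For the regions chosen on replicate 2 the differences were -4.82 and -2.65, and for the others 1.28 and 1.71. The 1 h libraries therefore lay below the held-out 0 h library and above the held-out 24 h library in both readings. Each held-out value comes from 1 library, so it has no spread of its own.

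Among the 6100 weakened regions, the 1 h values were spread widely. In 2276 (37.3%) both 1 h percentiles were at least 10 points below the lower 0 h percentile, a state found in 6.74% of all eligible regions. In 1957 (32.1%) neither was, against 89.0% of the other eligible regions, and in 1867 (30.6%) the 2 libraries of 1 h fell on either side of that limit, against 8.80% of the others. The 1 h and 24 h comparisons use the same 0 h libraries, so these counts describe the regions and are not independent of their choice. In single 1 h libraries, 55.3% and 49.9% of weakened regions were at least 10 points lower, against 7.97% and 5.29% of the other eligible regions. Against 1 h, both 24 h percentiles were at least 10 points below the lower 1 h percentile in 2288 weakened regions (37.5%), and in 7.18% of all eligible regions. Without a margin, both 1 h percentiles lay below both 0 h percentiles in 4230 weakened regions (69.3%) and in 23.3% of all eligible regions. Both 24 h percentiles lay below both 1 h percentiles in 4130 (67.7%), and in 29.8% of all eligible regions. Over the weakened regions the median difference from the mean 0 h percentile was -14.1 points at 1 h and -30.3 at 24 h.

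The 2276 regions weakened by 1 h were somewhat stronger at 0 h than the 1957 weakened after 1 h, with median percentiles of 81.4 and 75.5. They were also lower at 24 h, at 39.1 against 48.7. At 24 h their median peak was narrower, 281 and 302 bp against 359 and 380 bp, although at 0 h the sets were closer, 549 and 438 bp against 523 and 420 bp. The sets were split on the distance of their 1 h percentiles below the lower 0 h percentile. A high 0 h percentile by itself therefore favours the first set, and the change from 1 h to 24 h is not compared. In both sets the rule bounds the 24 h percentiles.

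The 5 regions with the largest 1 h gaps had their lowest mean fold at 1 h, and in 4 of them the 1 h and 24 h libraries did not overlap. 15:39165351-39165875 had folds of 8.77 and 8.75 at 0 h, then 2.75 and 3.18 at 1 h, then 3.87 and 3.97 at 24 h. 16:7187841-7188455 had 18.01 and 16.2, then 4.58 and 5.04, then 5.30 and 5.62. In both, the 1 h folds were the lowest and did not overlap those of 24 h. 8:58492954-58493396 had the same order, with mean folds of 8.66 ± 0.384 at 0 h, 3.59 ± 0.0319 at 1 h and 4.1996 ± 0.0727 at 24 h (SD, n = 2). 7:125124590-125125364 had it too, with mean folds of 12.2 ± 4.68, 3.14 ± 0.316 and 4.19 ± 0.875, although its 0 h libraries were as far apart as 15.5 and 8.88. In 6:52590522-52591016, with 9.16 ± 1.09, 3.21 ± 0.337 and 3.40 ± 0.0599, the 1 h and 24 h libraries overlapped. These 5 were picked for low 1 h values, which by itself favours a minimum there.

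At the other end were regions with a higher peak at 1 h than at 0 h. 10:124868962-124869499 had folds of 6.49 and 7.34 at 0 h, then 9.54 and 9.90 at 1 h, then 4.81 and 5.62 at 24 h. 6:13863910-13864338 had 7.64 and 7.31, then 10.4 and 10.1, then 5.30 and 4.60. In both regions all 3 times were separate, with 1 h highest. 15:45214641-45215244, X:20136075-20136968 and 12:2594969-2595571 had mean folds of 9.84, 9.42 and 10.7 at 1 h, but in each of them the higher 0 h fold lay above the lower 1 h fold. Such regions were few. Both 1 h percentiles exceeded both 0 h percentiles in 160 weakened regions (2.62%), and by at least 10 points in 15. Choosing high 0 h percentiles makes such regions rare by itself, and their share over all eligible regions was not counted.

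Weakened regions were narrower than the other eligible regions in every library. In the 1 h libraries, which had no part in the choice beyond holding a peak, their median peak was 493 and 462 bp wide against 662 and 634 bp, ratios of 0.745 and 0.729. At 24 h the widths were 311 and 335 bp against 566 and 558 bp, and at 0 h 525 and 420 bp against 641 and 544 bp. The ratio was thus 0.549 and 0.600 at 24 h and 0.819 and 0.772 at 0 h, with no overlap between the times, and 1 h lay between. Strengthened regions, chosen by the mirrored rule described below, were also narrower than the other eligible regions in every library, with ratios of 0.657 and 0.648 at 1 h. Peak calling makes a weak peak narrow, so width and strength are not separate measures. The whole merged region had a median of 630 bp in weakened and 771 bp in other eligible regions, and 86.1% of the weakened regions held exactly 1 peak in every library, close to the 86.9% of the others.

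The summit stayed in place in most weakened regions. The distance between a 24 h and a 0 h summit had a median of 44 bp, and the distances within a time were 47 bp at 24 h, 44 bp at 1 h and 36 bp at 0 h. In 3664 regions (60.1%) all 4 distances between a 24 h and a 0 h summit were at most 100 bp, compared with 72.6% of the other eligible regions. All 4 exceeded 100 bp in 415 weakened regions (6.80%) and in 801 of the other eligible regions (1.94%), and there the 24 h peak may be another one than at 0 h.

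The rule was mirrored to find strengthened regions, those with percentiles of at least 50 in both 24 h libraries and both 0 h percentiles at least 10 points below the lower 24 h one. It gave 4155 of 44088 eligible regions (9.42%), fewer than the 6100 weakened ones. That excess depended on how the lists were ranked. With ranks taken only among the 72695 regions common to all libraries, 4549 were weakened and 4525 strengthened, and with all lists trimmed to one common length, 4307 were weakened and 5373 strengthened. Of the 4549 weakened with ranks among common regions, 3926 (86.3%) were among the 6100, and they make up 64.4% of the 6100. The direction of the excess thus depended on the ranking. At 1 h, 1646 strengthened regions (39.6%) were already at least 10 points above the higher 0 h percentile in both libraries, against 5.21% of regions eligible for the mirrored rule.

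Chromosomes differed in the share of eligible regions that weakened. It was highest on chromosome 13, at 17.01% (200 of 1176, 95% exact binomial interval 14.9 to 19.3), and on chromosome 4, at 15.7% (363 of 2311). Chromosome 19 had 6.81% (124 of 1820, interval 5.70 to 8.07) and chromosome 22 had 7.89% (69 of 875). Chromosomes 4, 13 and 18 together, which are poor in genes, had 15.5% (705 of 4559), and the gene-rich chromosomes 16, 17, 19 and 22 had 8.43% (507 of 6017). Within the first group, chromosome 18 had 13.2% (142 of 1072, interval 11.3 to 15.4). That was near the 12.9% of all eligible regions and below the 15.0% of chromosome 5. The strengthened regions followed the same order of groups, with 11.9% on chromosomes 4, 13 and 18 and 5.18% on 16, 17, 19 and 22. Intervals cover counting error only, and regions of a chromosome are not independent.

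**Figure D4:**
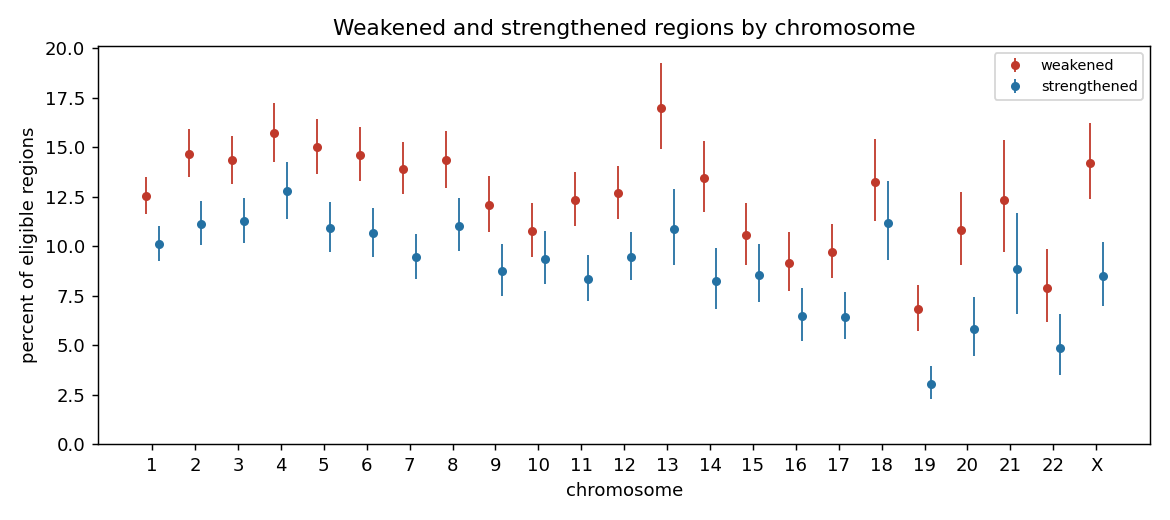
Share of eligible regions that were weakened and strengthened (y axis, percent) on each chromosome (x axis), with 95% exact binomial intervals as bars. Weakened shares run from 6.81% on chromosome 19 to 17.01% on chromosome 13, and the strengthened shares are lower on all 23 chromosomes, an order that depends on how the lists were ranked.

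Chromosome 21, singled out after its values were seen, had the highest share of its weakened regions weakened by 1 h, 38 of 69 (55.1%, interval 42.6 to 67.1). Chromosome 22 had the lowest, 17 of 69 (24.6%, interval 15.1 to 36.5). Over all chromosomes the share was 37.3%.

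The weakened regions were scattered. They lay in 2384 of the 2881 windows of 1 Mb that held an eligible region, with a median of 2 per window, and 266 windows held at least 5. The highest number was 9, reached by 4:124000001-125000000 with 23 eligible regions, 13:34000001-35000000 with 22, and 19:42000001-43000000 with 45. Of those 9 regions, 4, 5 and 1 in the same order were weakened by 1 h. Another 13 windows were tied at 8. The first 2 of these by position were 1:40000001-41000000 and 2:38000001-39000000, with 8 of 40 and 8 of 31 eligible regions. The windows on chromosomes 4, 13 and 19 had 39.1%, 40.9% and 20% of their eligible regions weakened, and those on chromosomes 1 and 2 had 20% and 25.8%. The share of all eligible regions was 12.9%. These windows were picked for many weakened regions, which by itself favours a high share.

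The shares of changed neighbours around weakened regions were above those around the other eligible regions and near those over all regions. Within 50 kb, 14.004% of eligible neighbours of weakened regions were weakened too, against 11.1% around the others and 12.9% of all eligible regions. Among neighbours held by both 0 h libraries, 13.7% were lost at 24 h around weakened regions, against 10.9% around the others and 13.1% of all such regions. The share of lost neighbours was higher around weakened regions on 22 of the 23 chromosomes, and that of weakened neighbours on 21. The median distance to the nearest lost region was 63.6 kb for weakened and 71.8 kb for other eligible regions, and it was shorter for weakened regions on 17 of the 23 chromosomes. It was 55.7 kb for regions weakened by 1 h and 71.0 kb for those weakened after 1 h. The median distance to the nearest region of any kind also differed, at 4.52 kb for regions weakened by 1 h and 6.13 kb for those weakened after 1 h, and the part of this density in the distances was not tested.

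This surrounding was not particular to weakened regions. Around strengthened regions 13.7% of neighbours were lost as well, 15.0% were weakened and 13.1% were strengthened, and the median distance to a lost region was 58.8 kb. Around weakened regions 11.5% of the neighbours eligible for the mirrored rule were strengthened, against 8.43% around other eligible regions and 9.42% of all regions eligible for that rule. All these shares were within a few points of those over all regions, which were 12.9% weakened, 13.1% lost and 9.42% strengthened. Neighbour shares, here and above, are pooled over pairs, so crowded places weigh more. The shares over all regions count each region once. Neighbouring regions also share the same libraries and their local depth.

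**Figure D5:**
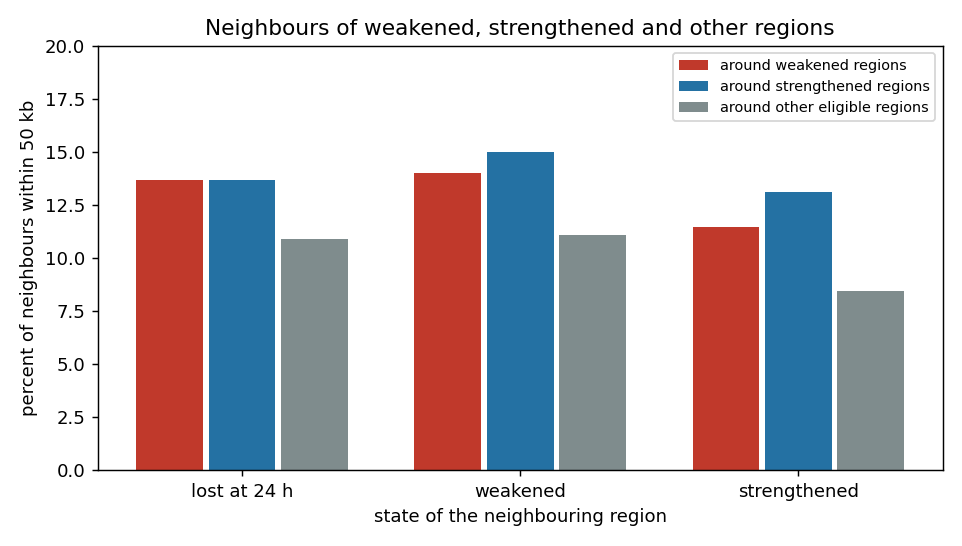
Share of neighbouring regions within 50 kb (y axis, percent) that were lost at 24 h, weakened or strengthened (x axis), around weakened, strengthened and other eligible regions. Lost neighbours make up 13.7% around weakened and around strengthened regions and 10.9% around the others.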

How the data were processed

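One peak list per library was used, on 6 libraries of 22Rv1 cells, 2 per time. The submitters' processing notes name the tools MACS2, Bowtie2, fastp and FastQC and the build hg19, with no version or setting. For read shifting and duplicate removal, nothing was given in these sources. The deposited fold is a ratio of summit pileup to local background, and the -log10 p and -log10 q are the authors' deposited values; the authors' score column repeats the -log10 q, multiplied by 10 and truncated, and was not used further. Coordinates are hg19, 1-based.

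Regions, percentiles (mean rank over list length) and counts were computed with Python 3.11.15, numpy 2.4.6, pandas 2.3.3 and scipy 1.17.1. The rule was also run on simulated folds of regions present in all 6 libraries. That simulation held no differences in depth or list length, and no result here rests on it. Summit pileups were recovered from fold and -log10 p, taking a Poisson p and 1 added to pileup and background, as MACS2 does by default. Relative depth is the most frequent background pileup over the shortest peak. The members, lists and comparisons were chosen with earlier results of these data known. Named regions are the 10 largest gaps at 24 h, 5 each by highest 0 h percentile, largest 1 h gap and highest 1 h relative to 0 h, 2 on each side of the margin, and the 5 windows with most weakened regions. Ties were taken by chromosome and then start. The reading in held-out libraries was added after seeing the data. Time points share replicate numbers, but no label explains them, and libraries were left unpaired. Motifs, promoter shares, gene names and marker genes had been planned; they need sequence or annotation of hg19 and were not analysed here. Precision is limited by depth: intervals cover counting error only, and reads are not independent molecules.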

Additional observations from a re-analysis of the deposited data

How the results depend on the processing

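Values follow in the order weakened regions, strengthened regions, share of weakened regions already weakened by 1 h, and median difference of 1 h from 0 h in points, with 6100, 4155, 37.3% and -14.1 as reported. A margin of 20 points gave 3022, 1908, 27.0% and -20.2, and one of 5 points 9123, 6405, 42.3% and -10.9. A 0 h percentile of at least 75 gave 2937, 2053 and 44.5%. Peaks covering 50% of the region gave 2579, 1950, 26.9% and -10.8. Ranks among common regions gave 4549, 4525, 49.9% and -20.5, and lists of one length 4307, 5373, 41.3% and -15.7. Summits within 100 bp, chosen after seeing the data, left 3664 weakened regions. A -log10 q of at least 5, 1 peak per region, ranks by -log10 q and ranks by recovered pileup (the last also added later) kept the first 2 counts within 1.5 times. The ratio of weakened to strengthened regions fell below 1 with lists of one length; the cause was not tested beyond that shortening removes weak peaks from the longer lists.

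Leaving out a library gave 6133 to 12081 weakened and 4180 to 8446 strengthened regions, shares by 1 h of 25.4% to 55.5% and differences of -15.4 to -9.48. The highest weakened count came without 0h replicate 1 (12081), then without 24h replicate 2 (11771), without 24h replicate 1 (9717) and without 0h replicate 2 (9380); the rule then has fewer conditions, and all 6100 regions stay included. With a replicate block, each 24 h library set against the 0 h library of its own number, 7726 were weakened and 5106 strengthened, with 38.7% by 1 h and a difference of -12.4. The correlation of replicate differences between times was 0.0419, 0.0474 and 0.0169, so the numbers show no pairing.

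On chromosomes 4, 13 and 18 the weakened share was 18.3% with ranks among common regions and 7.70% with a margin of 20; on 16, 17, 19 and 22 it was 9.29%, 3.74% and, ranked by -log10 q, 7.34%. The median distance to a lost region was 57.1 kb (margin of 20) and 58.2 kb (-log10 q) for weakened regions and 73.5 kb for other eligible regions (common ranks). The 1 h width ratio of 0.737 became 0.756 ranked by -log10 q. Depth limits weak peaks most, where 1 tag moves a percentile by several points.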
